A study of Mus musculus with 10 samples.

Results

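Of the 10 exon arrays of mouse amygdala in the series, 8 were compared by the number in their titles. The 4 arrays numbered 4 or 5 were set against the 4 arrays numbered 1 or 3, and the 2 arrays numbered 2 were in neither set. Each set held 2 wild-type and 2 knockout arrays, so genotype was balanced between the sets and was a covariate in every fit. The sets were chosen from measured values of these same arrays, namely where each array lay on the leading principal component. The difference between the sets is therefore a description, given with its standard error (SE) and without a test. It concerns variation shared by pools that carry the same number in both genotypes, and not the knockout.

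Wild-type mice were C57BL/6. Knockout mice were neuropsin-/- and had been crossed back to C57BL/6 for 12 generations; neuropsin is the secreted serine protease encoded by Klk8. All mice were 3 months old, were perfused with phosphate-buffered saline, and had the amygdala cut out of a coronal brain slice. One array measured the pooled RNA of 3 mice, so that 15 mice stood behind each genotype, and single animals cannot be told apart. RNA was depleted of ribosomal RNA and hybridised to the Affymetrix Mouse Exon 1.0 ST array, whose probe sets each cover about an exon. The labels do not say whether a number marks a shared day, litter, dissection or hybridisation.

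The amygdala is a group of nuclei in the temporal forebrain that serves fear and anxiety. Its neighbours are the striatum and globus pallidus, the piriform cortex, the hippocampus, the hypothalamus and the lateral ventricle, which holds a tuft of choroid plexus. The choroid plexus is a secretory epithelium that makes cerebrospinal fluid and exports transthyretin into it. Oligodendrocytes wrap axons in myelin, and their genes are abundant in fibre tracts such as the external capsule and the optic tract, which run beside the amygdala. In RNA from whole tissue, fewer cells of a type and less RNA per cell cannot be told apart.

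The deposited values were log2 signals of 1256831 probe sets, of which 318760 were annotated to exactly 1 gene symbol. Probe sets with a mean at or below the median of all probe sets, 4.94, were left out, and the rest were averaged per gene on the log2 scale. Genes needed at least 3 of them, which left 16367 genes with a median of 11 probe sets each. Array medians lay between 4.95 and 5.03. Klk8 overlapped between the genotypes as a mean of its 9 unfiltered probe sets, which ranged from 4.60 to 5.52. At 1 of these probe sets the level was lower on every knockout array (3.56 to 5.38) than on every wild-type array (5.48 to 6.07). The labels do not say which exon was deleted, so these values do not settle the genotype labels. Of the gene lists for the dissected tissue, 8 of 19 measured genes of the lateral and basolateral amygdala and 6 of 18 of the central and medial amygdala lay above the all-gene median on every array.

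The values that chose the sets were the scores on this component, which held 35.5% of the variance of the 10 arrays. Wild-type arrays 4 and 5 scored 20.5 and 23.5, and knockout arrays 4 and 5 scored 7.45 and 3.14. The scores of numbers 1 and 3 were -14.2 and -13.4 in wild type and -10.3 and -11.7 in knockout. Number 2 lay between them, at -2.54 in wild type and -2.43 in knockout. The nearest array inside the set of numbers 4 and 5 was thus knockout array 5, and the nearest inside the set of numbers 1 and 3 was knockout array 1. The wild-type arrays 4 and 5 were the most distant from the middle, which was known when the sets were chosen.

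A wild-type array and a knockout array share no control, so the correlation of their deviations from the genotype means over all genes describes how alike the pools were. In the 8 pairs drawn from the same set, this correlation ran from 0.20 to 0.41. In the 8 pairs drawn from opposite sets, it ran from -0.36 to -0.16. The 9 pairs with a number 2 array gave -0.17 to 0.16. Every wild-type array numbered 1, 3, 4 or 5 correlated best with a knockout array of its own set, 4 of 4, whereas the partner with the same number was the best match of 3 of 5 wild-type and 4 of 5 knockout arrays. Deviations from a genotype mean cancel over its arrays, so positive pairs must be balanced by negative pairs elsewhere. These values come from genes of the arrays used to choose the sets and carry no test.

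**Figure D1:**
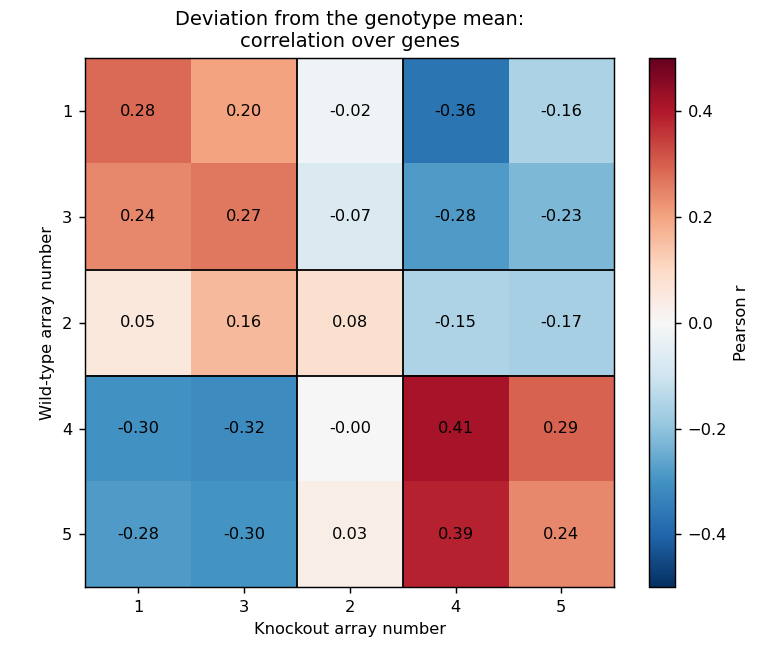
Correlation over 16367 genes between each wild-type array (vertical axis) and each knockout array (horizontal axis), after the genotype mean of every gene was subtracted; arrays are ordered by number as 1, 3, 2, 4, 5. Pairs within a set are positive (0.20 to 0.41), pairs across the sets are negative (-0.36 to -0.16), and pairs with number 2 lie around 0. Positive pairs require negative ones elsewhere, since deviations cancel over the arrays of a genotype.

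The split of numbers accounted for 30.3% of the sum of squares over all genes and arrays. Genotype accounted for 13.1%, and the part of the split that differed between the genotypes for 11.9%. The contrast of number 2 with the other numbers held 9.86%, that of number 1 with number 3 held 8.79%, and that of number 4 with number 5 held 5.50%. The sets had the largest of these shares, and they had been chosen on it.

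Across the 16367 genes, 6297 were higher and 10070 lower in numbers 4 and 5, with a median difference of -0.06 on the log2 scale. A gene was called when its difference was at least 0.5 and all 4 arrays of a set lay beyond all 4 of the other. By this rule 141 genes were higher (0.861% of those measured) and 72 were lower (0.44%). Without the minimum size, the sets did not overlap for 1137 higher genes (6.95%) and 2006 lower genes (12.3%). Predicted genes and pseudogenes made up 42 of the 141 higher genes and 7 of the 72 lower ones, beside 6.92% of all genes.

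The split between higher and lower calls depended on scale and filter. With each array centred on its median there were 77 higher and 133 lower genes, and the median difference of all genes moved to -0.11. Without the intensity filter the counts were 63 and 86, and only 18 of the 141 higher genes were called again, against 47 of the 72 lower ones. With gene levels taken as the median of the probe sets, 166 were higher and 226 lower, and with a stricter intensity filter 53 and 55. Leaving out knockout array 1, 3 or 5 brought the lower genes to 120, 134 or 144.

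The difference was larger in wild type than in knockout, and shared in part. The root mean square of the difference over genes was 0.291 in wild type and 0.193 in knockout. The median difference of all genes was -0.11 in wild type and 0.00 in knockout. The same sign was seen in both genotypes for 11190 genes (68.4%), and the correlation of the 2 differences over genes was 0.522 (Pearson) and 0.519 (Spearman). Genes are not independent replicates, and the sets were chosen on both genotypes, so no p-value is given.

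**Figure D2:**
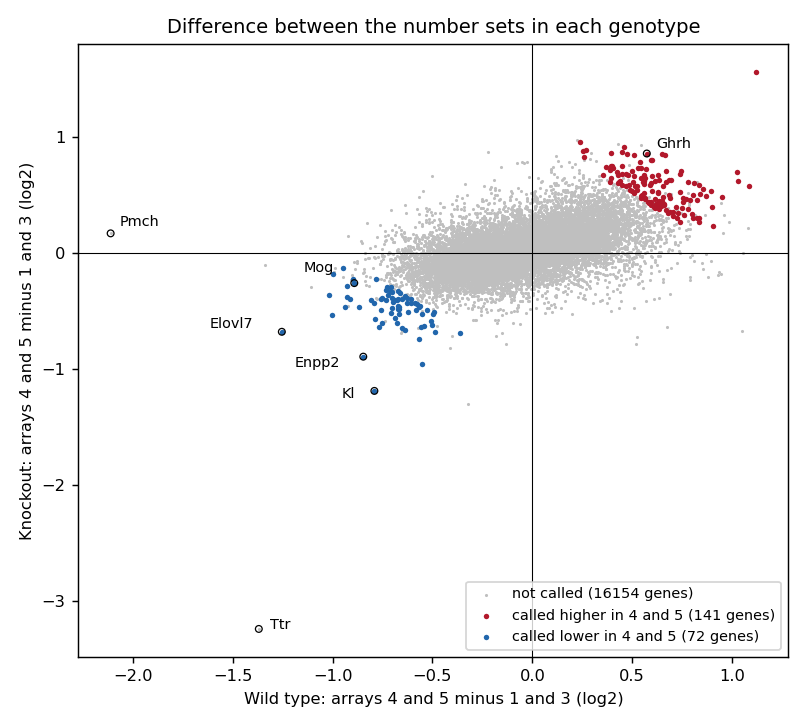
Difference of numbers 4 and 5 minus numbers 1 and 3 (log2) in wild type (horizontal axis) and in knockout (vertical axis), 1 point per gene, with the 141 genes called higher and the 72 called lower in colour. All called genes lie in the quadrants of equal sign, which the rule for a call fixes, Ttr stands far below 0 on both axes, and Pmch is low in wild type only.

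The lowest gene of all was Ttr, which encodes transthyretin, the thyroxine carrier that choroid plexus epithelium secretes. In wild type its level was 10.69 and 11.55 for numbers 1 and 3 and 8.74 and 10.77 for numbers 4 and 5. In knockout it was 10.83 and 10.63 for numbers 1 and 3 and 7.26 and 7.71 for numbers 4 and 5. The levels of 3 of the 4 arrays numbered 4 or 5 were far below the rest, while wild-type array 5 stood at the level of numbers 1 and 3, so the sets overlapped and Ttr was not called. The difference was -2.31 (SE 0.45), a level 4.95-fold lower in numbers 4 and 5. It was -1.37 in wild type and -3.24 in knockout.

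Kl encodes klotho, the FGF23 co-receptor made by choroid plexus and kidney. Its level was 7.51, 8.12, 7.54 and 7.54 on wild-type arrays 1 and 3 and knockout arrays 1 and 3, and 6.59, 7.46, 6.34 and 6.36 on wild-type arrays 4 and 5 and knockout arrays 4 and 5. The sets did not overlap, though wild-type array 5 came close to the set of numbers 1 and 3. The difference was -0.99 (SE 0.18), or 1.99-fold lower. Enpp2 encodes autotaxin, a lysophospholipase D of choroid plexus that oligodendrocytes also make. In the same order of arrays it stood at 9.58, 10.21, 9.65 and 9.50 in numbers 1 and 3, and at 8.84, 9.26, 8.50 and 8.86 in numbers 4 and 5. Its sets were clearly apart, with a difference of -0.87 (SE 0.14), or 1.83-fold lower.

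Kcnj13, a potassium channel of the epithelium's apical membrane, differed by -0.68 (SE 0.18), and Clic6, an intracellular chloride channel protein, by -0.61 (SE 0.18). Both overlapped between the sets, and in both wild-type array 5 was the highest of the 4 arrays numbered 4 or 5, at 6.81 for Kcnj13 and 6.44 for Clic6. Of the list of choroid plexus and ependyma genes, 9 of 12 measured members were lower. Of the 12, 1 was called lower, beside 0.44% of all genes, and 2 had sets that did not overlap, a share near the 12.3% of all genes. The median was -0.21, against -0.06 for all genes, and -0.27 after cyclic loess normalization. The members were uneven. Among those chosen for mention after their values were seen, the folate receptor Folr1 differed by -0.06, the water channel Aqp1 by 0.08 and the channel subunit Kcne2 by 0.02. Without wild-type array 4 the list median was -0.10.

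Some genes of this tissue that were chosen after their values were seen had smaller differences than Ttr. Otx2, the homeodomain factor that maintains the choroid plexus, differed by -0.32 (SE 0.10), and F5, coagulation factor V, by -0.61 (SE 0.15). With the genotype means removed, the genes most like Ttr over the 10 arrays were Kl (r = 0.984) and Mdm1 (r = 0.968), the only 2 genes with r above 0.95. F5 followed at 0.945, Kcnj13 and Enpp2 at 0.927, and Clic6 at 0.887. The genes were picked by these correlations, which describe 10 arrays that include the ones used to choose the sets.

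**Figure D3:**
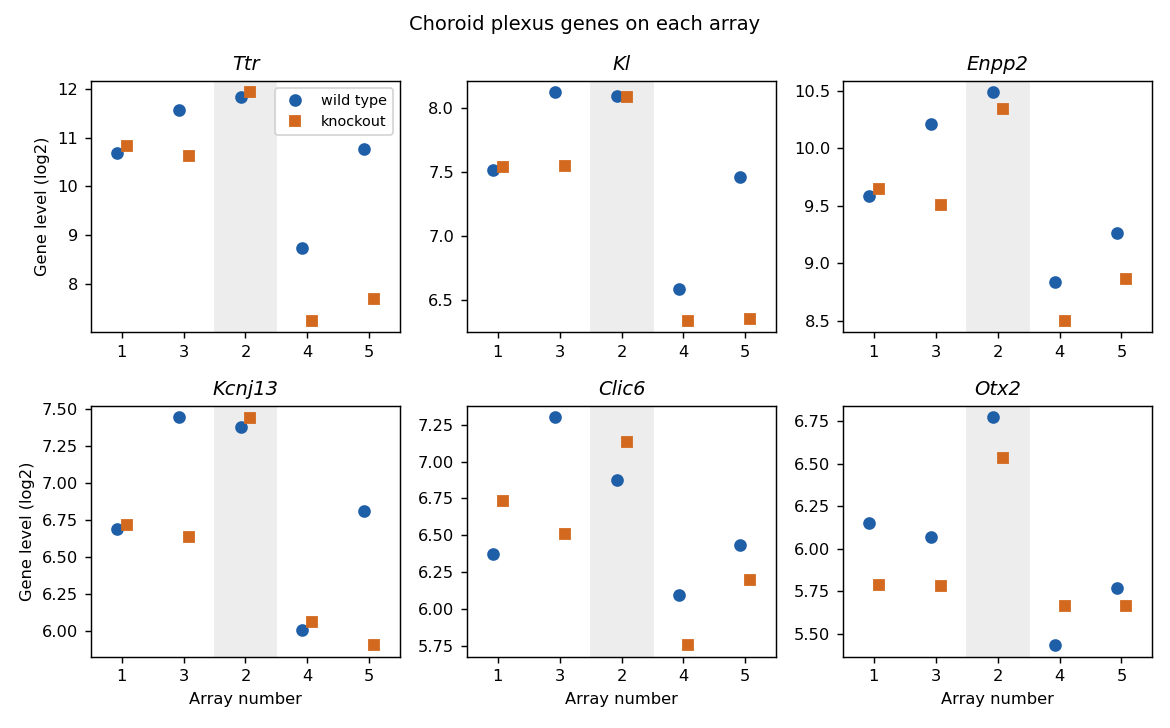
Gene level (log2) of Ttr, Kl, Enpp2, Kcnj13, Clic6 and Otx2 on each array, with numbers ordered 1, 3, 2, 4, 5, number 2 shaded, and the genotypes in separate symbols. In knockout, numbers 4 and 5 are both low; in wild type, number 5 returns towards numbers 1 and 3 for Ttr and Kl; number 2 stands at or near the top in each panel.

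Myelin genes were lower in numbers 4 and 5 in both genotypes. Of 17 measured genes of the oligodendrocyte and myelin list, 16 were lower, the exception, named for that, being the transcription factor Sox10 at 0.05. The median was -0.39, against -0.06 for all genes, and -0.56 in wild type and -0.21 in knockout. Of the 17, 3 were called lower, namely Enpp2, Mog and Tspan2, beside 0.44% of all genes. The sets did not overlap for these 3 genes alone, beside 12.3% of all genes. Enpp2 was described above among choroid plexus genes, and it followed Ttr at r = 0.927 over the 10 arrays. It differed by -0.85 in wild type and by -0.90 in knockout. Without wild-type array 5 the list median was -0.25, and after cyclic loess normalization it was -0.30.

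Mog, the myelin oligodendrocyte glycoprotein of the outer sheath, stood in wild type at 9.78 and 9.18 in numbers 1 and 3 and at 8.75 and 8.42 in numbers 4 and 5. In knockout it stood at 9.04 and 8.87 in numbers 1 and 3 and at 8.60 and 8.78 in numbers 4 and 5. The sets were narrowly apart in knockout and widely apart in wild type, with a difference of -0.58 (SE 0.16). Tspan2, a tetraspanin of myelin, was 9.78, 9.41, 9.25 and 9.34 on wild-type arrays 1 and 3 and knockout arrays 1 and 3, and 9.11, 8.55, 8.73 and 9.06 on the matching arrays 4 and 5. The sets did not overlap, and the difference was -0.58 (SE 0.14). Ermn, the actin-binding ermin of mature oligodendrocytes, had the larger difference of -0.70 (SE 0.18), but knockout array 5 at 7.72 lay above knockout array 3 at 7.59. Among members named after their values were seen, Opalin differed by -0.52, Mag by -0.43 and Mbp by -0.24.

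Averaged over the list and centred on 10 arrays, myelin was highest on wild-type arrays 2 (0.46) and 1 (0.44) and lowest on wild-type array 5 and knockout array 4, both at -0.41. Wild-type array 4 stood at -0.08 and knockout arrays 3 and 5 at -0.09 and -0.13, so the sets overlapped, though not within a genotype. The choroid plexus list was highest on wild-type array 2 (0.58) and knockout array 2 (0.46) and lowest on both knockout arrays 4 and 5 (-0.51). On wild-type array 5 the lists parted, with choroid plexus at 0.09 and myelin at -0.41. The genes that followed Mog over the 10 arrays were others than those that followed Ttr. Picked in the same way, they included Plod1 and Insig1 (both r = 0.983), S100b (0.970), the myelin regulatory factor Myrf (0.966), Mal (0.964) and Mobp (0.960), and 42 genes had r above 0.95.

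Elovl7, an elongase of long-chain fatty acids, had the lowest difference of any called gene after Kl. It stood at 7.69, 7.65, 7.23 and 6.67 on numbers 1 and 3 of wild type and then of knockout, and at 6.45, 6.38, 6.40 and 6.15 on the arrays numbered 4 or 5. All 4 arrays of numbers 4 and 5 lay below the lowest of the others, with a difference of -0.97 (SE 0.14). Aldh1a1, which makes retinoic acid from retinaldehyde, differed by -0.68 (SE 0.12). It ranged from 8.15 to 8.64 in numbers 1 and 3 and from 7.54 to 8.07 in numbers 4 and 5. Other genes among the 15 called with the lowest differences were Spink10 (-0.77), the protocadherin Pcdhb13 (-0.76), Ankrd34c (-0.71), Proca1 (-0.70), the actin-bundling plastin Pls1 (-0.68), Strip2 (-0.66), Zbtb26 (-0.65), the initiator caspase Casp8 (-0.64) and the iron-sulfur co-chaperone Hscb (-0.63).

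Genes of glia, immune cells and vessels followed. Agt, the angiotensinogen that astrocytes secrete, was called, with levels of 8.86 to 9.42 in numbers 1 and 3 and 8.61 to 8.79 in numbers 4 and 5 and a difference of -0.50 (SE 0.10). Of the astrocyte list 14 of 18 were lower, with a median of -0.19, which was -0.08 with 11 of 18 lower after cyclic loess normalization. The list's median level, 8.75, lies in the highest of 10 bands of level, in which 23.3% of all genes were higher. The intermediate filament Gfap differed by -0.27 (SE 0.13), and by 0.04 in knockout alone. Mpeg1, a pore-forming protein of macrophages, was called at -0.66 (SE 0.12). The microglia list, in which 12 of 14 were lower, had a median of -0.16, or -0.10 after cyclic loess normalization, and no called member. In that list the protease Ctss differed by -0.35 and the receptor Csf1r by -0.22. Of the endothelial list 14 of 17 were lower, with a median of -0.11, or -0.06 after cyclic loess normalization. In 5 of them the sets did not overlap, beside 12.3% of all genes, and the transporter Slco1a4 differed by -0.48 and the receptor Tek by -0.42.

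B2m, the light chain of class I histocompatibility molecules, was a called gene of high level. It stood at 9.86, 9.77, 9.62 and 9.58 on numbers 1 and 3 of wild type and then of knockout, and at 9.11, 9.14, 9.12 and 9.26 on the arrays numbered 4 or 5. The sets were well apart, with a difference of -0.55 (SE 0.08). Other genes of the interferon and inflammation list went both ways, since 9 of 15 were lower and the interferon-induced Bst2 and Ifi44 both differed by 0.42. These turned to -0.02 for Bst2 with the median of probe sets and to -0.13 for Ifi44 without the intensity filter. Of the blood cell list 3 of 5 were lower, and the globin gene Hbb-b1 differed by -0.26 (SE 0.19). Cd79a, the immunoglobulin-associated chain of B cells, was called higher at 0.58 (SE 0.10). Its levels were 5.35 to 5.80 in numbers 1 and 3 and 5.83 to 6.21 in numbers 4 and 5, so the sets were narrowly apart. The level of Cd79a rests on 3 probe sets and lies in the lowest of 10 bands of level, in which 3.30% of genes were called higher. Among meningeal genes 9 of 12 were lower, with a median of -0.11. In wild type alone 6 of 12 were lower, with a median of -0.01, and in knockout alone 8, with -0.06. After cyclic loess normalization 5 of 12 were lower, with a median of 0.01.

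Among neuronal genes, those of inhibitory and striatal cells are described first. Of the list of GABA neurons and interneurons 17 of 22 were lower, with a median of -0.16, and 7 had sets that did not overlap, beside 12.3% of all genes. After cyclic loess normalization the median was -0.09 and 14 of 22 were lower. Gad2, which makes GABA from glutamate, ranged from 9.68 to 10.06 in numbers 1 and 3 and from 9.36 to 9.64 in numbers 4 and 5. The sets did not overlap, and the difference of -0.36 (SE 0.08) was under the size for a call. Tac2, which encodes the precursor of neurokinin B and marks cells of the central amygdala, was called at -0.52 (SE 0.09), from levels of 7.22 to 7.48 against 6.66 to 6.96. Chrm2, the M2 muscarinic acetylcholine receptor, was called at -0.62 (SE 0.14), from 7.18 to 7.73 against 6.52 to 7.08. The opioid peptide gene Pdyn differed by -0.42 (SE 0.10) with no overlap, and Slc5a7, the choline transporter of cholinergic neurons, by -0.51 (SE 0.14) with overlap.

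Of the list of striatum and intercalated cells 17 of 19 were lower, with a median of -0.24 against -0.06 for all genes, -0.13 in wild type and -0.22 in knockout. After cyclic loess normalization the median was -0.13 and 13 of 19 were lower. Rgs9, a regulator of G-protein signalling in striatal neurons, stood in wild type at 8.41 and 8.57 in numbers 1 and 3 and at 8.54 and 8.18 in numbers 4 and 5. In knockout it stood at 8.58 and 8.75 in numbers 1 and 3 and at 7.59 and 8.17 in numbers 4 and 5. Knockout array 4 was the lowest, the sets overlapped in wild type, and the difference was -0.46 (SE 0.16). Penk, the proenkephalin gene, differed by -0.38 (SE 0.14) with overlap. Over the list, knockout array 4 averaged -0.40 and the other 9 arrays between -0.14 and 0.26, and without knockout array 4 the list median was -0.09.

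Other lists of neighbouring regions stood near the median of all genes. The lateral and basolateral amygdala list had a median of -0.09 and the central and medial amygdala list -0.08, and in knockout alone both were above 0, at 0.06 and 0.05. The cortex and piriform list stood at -0.07, the thalamus list at -0.09 and the hippocampus list at 0.01. Slc17a6, the vesicular glutamate transporter of thalamic and hypothalamic neurons, differed by -0.56 (SE 0.15), with wild-type array 1 at 8.08 far above the others and an overlap between wild-type array 4 (7.18) and knockout array 1 (7.15). The excitatory neuron list had 11 of 18 members higher and a median of 0.04, and the immediate early genes had 14 of 26 higher and a median of 0.03. Both medians were below 0 without wild-type array 5 and with arrays centred on their medians. After cyclic loess normalization they were 0.10 and 0.08, with 4 of 18 and 8 of 26 genes lower. The lateral and central amygdala, cortex, thalamus and hippocampus lists then stood at 0.00, -0.05, 0.04, -0.04 and 0.01.

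**Figure D4:**
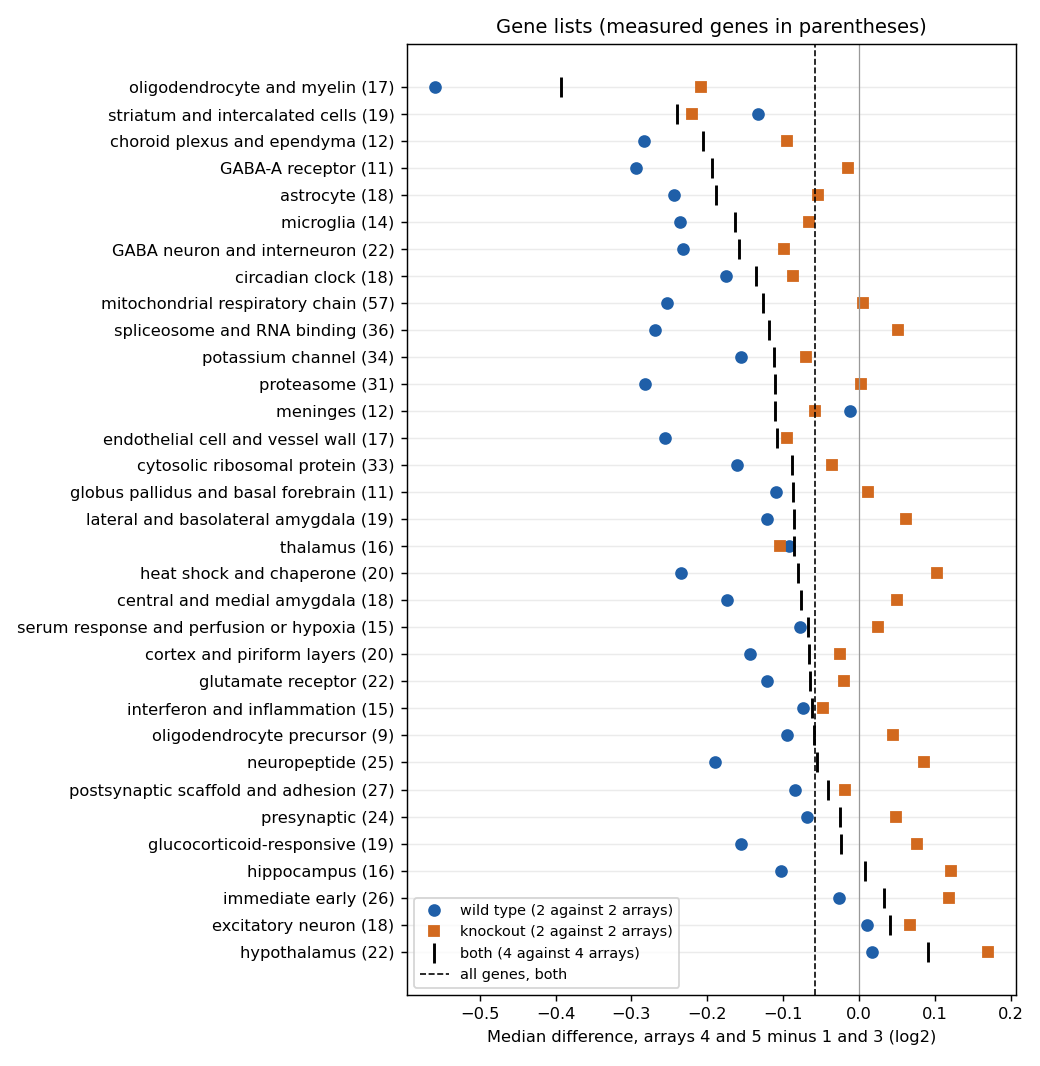
Median difference of numbers 4 and 5 minus numbers 1 and 3 (log2) over the measured genes of each list with at least 9 measured genes, for both genotypes together and for wild type and knockout apart; the dashed line marks the median of all genes, -0.06. Myelin (-0.39), striatum (-0.24) and choroid plexus (-0.21) lie lowest, and hypothalamus (0.09) highest.

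The hypothalamus list leaned the other way with both genotypes together, with 14 of 22 genes higher and a median of 0.09. In 4 of the higher genes the sets did not overlap, beside 6.95% of all genes. In wild type alone 11 of 22 were lower, with a median of 0.02, and in knockout alone 5, with 0.17. After cyclic loess normalization 11 of 22 were lower, with a median of 0.04. The list's median level, 6.66, lies in band 4 of level from the bottom, in which 48.7% of all genes were higher. The list's called member was Ghrh, the growth hormone-releasing hormone of arcuate neurons. Ghrh stood at 7.46, 7.08, 6.78 and 7.11 on numbers 1 and 3 of wild type and then of knockout, and at 7.81, 7.87, 7.86 and 7.75 on the arrays numbered 4 or 5. The 4 arrays numbered 4 or 5 were nearly equal and all above the others, with a difference of 0.71 (SE 0.11), or 1.64-fold higher. The level rests on 3 probe sets, and with their median in place of their mean the difference was 0.30. Rax, a homeobox factor of the hypothalamus, differed by 0.52 (SE 0.13) with overlap, while the vasopressin gene Avp differed by -0.47 (SE 0.24). Without the intensity filter the list median was just below 0.

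The named genes with the highest called differences were mostly of low level. Asb9, an ankyrin repeat protein, stood at 4.80, 5.09, 4.47 and 5.17 on numbers 1 and 3 of wild type and then of knockout, and at 5.88, 6.06, 5.61 and 5.42 on the arrays numbered 4 or 5. Its sets did not overlap, with a difference of 0.86 (SE 0.15). Asb9 averaged 4.88 in numbers 1 and 3, under 4.94, the value that the mean of a probe set had to pass. C1s1, named below, averaged 4.79 there, so both may have passed the filter only through the arrays where they were high. Pdzk1ip1, a small membrane protein, ranged from 6.26 to 6.62 in numbers 1 and 3 and from 7.06 to 7.24 in numbers 4 and 5, a difference of 0.72 (SE 0.09). Others were Scp2d1 (0.83), the antisense RNA Hnf4aos (0.75), the adhesion molecule Ceacam2, Tmem202, the gut protease Tmprss15 and the terminal complement protein C9 (each 0.71), Ankrd22, the hepatocyte receptor Asgr2 and the complement protease C1s1 (each 0.70), Ccn6 (0.69), Spatc1 (0.68) and the T cell cytokine Il17a (0.68). Tubb4b-ps2, a tubulin pseudogene chosen after its value was seen, had the highest difference of all genes, 1.34 (SE 0.26), and its level may share signal with tubulin genes of like sequence.

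Rpl5, a protein of the large ribosomal subunit, was also called. It stood at 8.14, 8.16, 8.17 and 7.88 on numbers 1 and 3 of wild type and then of knockout, and at 8.50, 8.81, 8.49 and 8.77 on the arrays numbered 4 or 5. The sets were clearly apart, with a difference of 0.56 (SE 0.10), which rests on 3 probe sets of a gene that has processed pseudogenes. Most other ribosomal protein genes did not share it, since 24 of 33 were lower, Rps9 by -0.33 and Rpl8 by -0.30. The list's median level, 8.81, lies in the highest of 10 bands of level, in which 23.3% of all genes were higher. After cyclic loess normalization 17 of 33 were lower, with a median of -0.001.

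The calls were tied to level. The genes were divided into 10 bands of equal size by their mean level over the 10 arrays. In the lowest band the median difference was 0.15 and 74.6% of genes were higher in numbers 4 and 5. In band 8 from the bottom the median was -0.13 and 16.1% were higher, and in the highest band the median was -0.08 and 23.3% were higher. The Spearman correlation over genes of the difference with level was -0.38, with the number of probe sets -0.34 and with gene length -0.27. Of the 141 genes called higher, 109 (77.3%) lay in the lowest 3 bands and 113 (80.1%) had 3 to 5 probe sets, against 20.1% of all genes. Of the 72 genes called lower, 28 lay in the lowest 3 bands.

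Probe sets showed this pattern only in part. Probe sets annotated to 1 gene had a median difference of -0.08, and probe sets with no gene symbol, which include predicted exons and intronic sequence, a median of 0.01. In 10 bands of probe set level, those annotated to 1 gene had medians of 0.01 in band 6 and -0.11 in the highest. In the lowest band, which the filter left out, their median was -0.20. Those with no symbol rose with level, from -0.18 in the lowest band to 0.10 in the highest. The gap between the medians of named and unnamed probe sets on an array was 2.24, 2.23, 2.23, 2.00 and 2.02 on wild-type arrays 1 to 5. On knockout arrays 1 to 5 it was 2.20, 2.20, 2.19, 2.12 and 2.18. Numbers 4 and 5 had a narrower gap than the other numbers in both genotypes, widely so in wild type and, for knockout array 5, by little. By annotated kind, pseudogenes had a median difference of 0.10, long noncoding RNAs of 0.07 and protein-coding genes of -0.06. Cyclic loess normalization, which makes the difference even across level, brought the median of all genes to 0.00 and the calls to 100 higher and 76 lower. Of the 141 higher genes 67 were called again and of the 72 lower genes 43. RNA integrity and the amount of genomic or unspliced RNA were not measured here, and their part in the result was not tested.

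**Figure D5:**
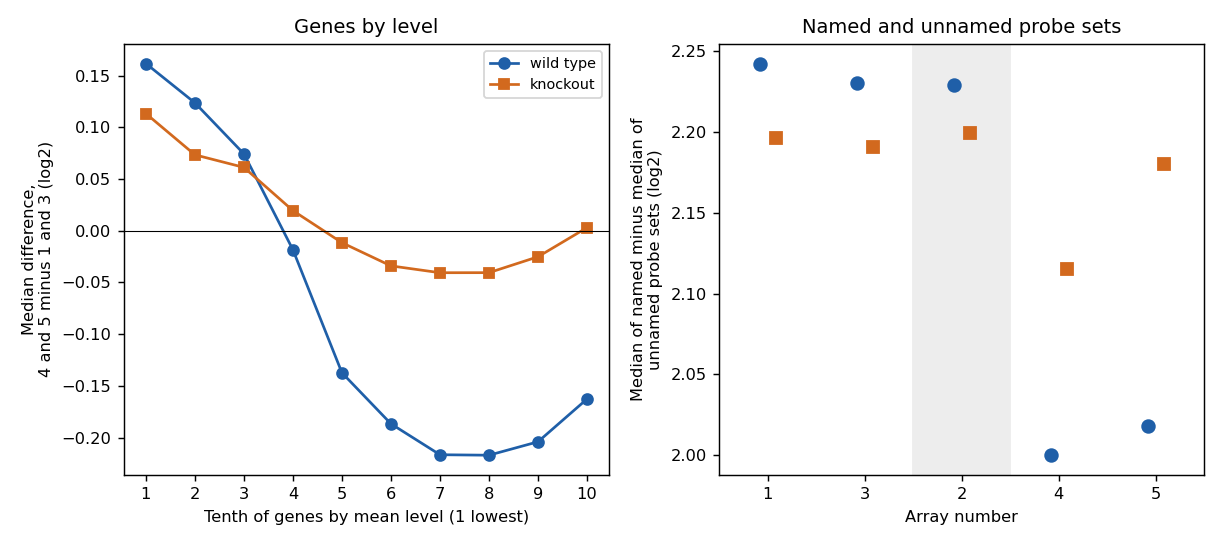
Left, median difference of numbers 4 and 5 minus numbers 1 and 3 (log2) in each of 10 bands of gene level, in wild type and in knockout; right, gap between the median log2 signal of probe sets with 1 gene symbol and of those with none, by array. In both genotypes the difference is above 0 in the lowest 3 bands and below 0 from band 5 to band 9. In the highest band it is -0.16 in wild type and 0.00 in knockout. The gap is smallest on wild-type arrays 4 and 5 (2.00 and 2.02).

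Large sets of genes for the upkeep of the cell were lower in wild type, with medians near 0 in knockout. Of 57 genes of the mitochondrial respiratory chain, 47 were lower, 54 in wild type alone and 27 in knockout alone, with medians of -0.25 in wild type and 0.01 in knockout. Of 31 proteasome genes 30 were lower, with medians of -0.28 in wild type and 0.00 in knockout. Of 36 genes of the spliceosome and RNA binding 32 were lower, with medians of -0.27 and 0.05. After cyclic loess normalization the medians of these lists were -0.03, -0.01 and -0.02. No member of the 3 lists was called, and their median levels, from 8.45 to 8.51, lie in band 9 of level, whose median difference was -0.20 in wild type and -0.03 in knockout.

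Whether the split differed between the genotypes was tested as the interaction of genotype and set, the knockout difference minus the wild-type difference. With limma and Benjamini-Hochberg adjustment over all genes, 0 of 16367 genes passed an adjusted p of 0.05 (0%), and the smallest adjusted p was 0.122. At an unadjusted p under 0.05 there were 2234 genes, 1859 with a higher value in knockout and 375 with a lower one, and limma with a trended and robust variance also gave 0. That wild-type arrays 4 and 5 were the extreme ones was known when the sets were chosen, so this test is not fully independent of the choice. All p-values measure only the spread between arrays, each a pool of animals.

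Pmch, the gene of melanin-concentrating hormone, a peptide of lateral hypothalamic neurons, had the smallest p of the interaction. In wild type its level was 7.59 and 7.40 in numbers 1 and 3 and 5.41 and 5.35 in numbers 4 and 5. In knockout it was 4.34 and 4.86 in numbers 1 and 3 and 4.93 and 4.60 in numbers 4 and 5. Wild-type numbers 1 and 3, and number 2 at 7.19, were high, and the other 7 arrays were low. The interaction was 2.28 (SE 0.25, adjusted p = 0.122, limma), and the level rests on 3 probe sets. On every knockout array Pmch was below 4.94, the value that the mean of a probe set had to pass, so it was measured through the wild-type arrays, and its knockout difference is one between low values. With the same limit, the adjusted p was 0.0269 (limma) without knockout array 3. Neurod6, a transcription factor of excitatory forebrain neurons, stood at 6.80 and 6.59 against 5.93 and 5.79 in wild type and at 6.39 and 6.31 against 6.62 and 6.60 in knockout, an interaction of 1.09 (SE 0.15, adjusted p = 0.199, limma).

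By list, the interaction was above 0 for 30 of 31 proteasome genes, 34 of 36 spliceosome genes and 50 of 57 respiratory chain genes, with medians of 0.27, 0.30 and 0.29. All genes had a median of 0.11, with 11289 above 0. The myelin list stood at 0.32, with 16 of 17 above 0. The choroid plexus list stood at -0.04, with 5 of 12 above 0, and the striatum list also at -0.04, with 9 of 19 above 0. No gene of these lists passed the test.

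Knockout and wild type were also compared within the 8 arrays, with the set as covariate. By limma 2 genes passed, both lower in knockout (0.0122% of those tested). At an unadjusted p under 0.05 there were 1687, and the trended and robust variance gave 3. Myo7a, an unconventional myosin of hair cells and retina, lay between 6.75 and 6.91 on the wild-type arrays of the 2 sets and between 6.13 and 6.23 on the knockout ones, a difference of -0.67 (SE 0.07, adjusted p = 0.0259, limma). Hbb-b1, an adult beta-globin gene, lay between 8.84 and 9.98 in wild type and between 7.44 and 7.89 in knockout, a difference of -1.62 (SE 0.19, adjusted p = 0.0378, limma), and its 3 probe sets may share signal with other globin genes. The genotypes did not overlap for either gene. With the number as a fixed replicate block neither passed, each with an adjusted p of 0.0696 (limma). The count was 0 without wild-type array 4 or without knockout array 1, 3, 4 or 5, and 1 without wild-type array 1 or 5.

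The numbers within a set were compared next. They had been put in a set because their arrays lay together on the leading component, so small differences between them were built in by the choice. Number 4 minus number 5 gave 0 genes (0%) with limma, a smallest adjusted p of 1.00, 337 genes (2.06%) at an unadjusted p under 0.05, and 0 with the trended and robust variance. Number 1 minus number 3 gave 0 genes (0%) with limma, a smallest adjusted p of 0.187, 895 genes (5.47%) at an unadjusted p under 0.05, and 0 with the trended and robust variance. The root mean square difference over genes was 0.126 for number 4 minus number 5 and 0.159 for number 1 minus number 3. Each of these compares 2 pools with 2, so a gene that differed by less than several times the median SE of 0.13 would not pass.

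Number 2 was in neither set, though its place between them was known when the sets were chosen. For the 141 genes called higher, its level was nearer to numbers 4 and 5 than to numbers 1 and 3 for 73 genes in wild type and 85 in knockout. For the 72 called lower, it was nearer to numbers 4 and 5 for 13 in wild type and 39 in knockout. Over the lower genes the median centred level was 0.21 on wild-type array 2, near arrays 1 and 3 (0.36 and 0.32), and -0.05 on knockout array 2, between arrays 1 and 3 (both 0.20) and arrays 4 and 5 (-0.33 and -0.17).

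Against the mean of the other numbers, number 2 gave 0 genes (0%) with limma, a smallest adjusted p of 0.0537, and 1046 genes at an unadjusted p under 0.05, of which 939 were higher. The trended and robust variance gave 1. The gene of smallest p was Enpp2, at 10.48 on wild-type array 2 and 10.34 on knockout array 2, above the highest other array at 10.21. Its difference was 1.11 (SE 0.13, adjusted p = 0.0537, limma). Otx2 stood at 6.77 and 6.53 on the number 2 arrays and at most at 6.15 on the others, a difference of 0.86 (SE 0.11, adjusted p = 0.0981, limma). F5 differed by 0.95 (SE 0.16, adjusted p = 0.303, limma) and Ttr, at 11.83 and 11.92 on the number 2 arrays and at most 11.55 elsewhere, by 2.11 (SE 0.46, adjusted p = 0.574, limma).

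All 12 measured genes of the choroid plexus and ependyma list were higher in number 2, 10 of them at an unadjusted p under 0.05, and the list median was 0.60. Of all 16367 genes 11988 were higher, with a median of 0.06, and 939 were higher at an unadjusted p under 0.05. At that p, 6.39% of all genes differed in either direction. The median gene level of each number 2 array, 7.18 in wild type and 7.13 in knockout, was the highest of its genotype. All 12 meningeal genes and all 17 myelin genes were higher too, with 4 and 2 at an unadjusted p under 0.05 and medians of 0.20 and 0.22. Most genes for the upkeep of the cell were higher as well. They were 30 of 33 ribosomal protein, 50 of 57 respiratory chain and 29 of 31 proteasome genes. Of these, 14, 19 and 9 had an unadjusted p under 0.05, and the list medians were 0.22, 0.13 and 0.14. Number 2 thus had the highest choroid plexus levels of the series, while the arrays numbered 4 or 5 other than wild-type array 5 had the lowest. Leaving out wild-type array 5 gave 4 genes that passed for number 2, and leaving out wild-type array 1 or 3 or knockout array 1 or 3 gave 1 each.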

How the data were processed

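The log2 values per probe set were made by the authors with RMA in Affymetrix Expression Console, per the submitters' processing notes; no version, genome build or annotation level is given in the sources used here. RMA brings the probes of all arrays to 1 distribution, so every difference is relative to the other probe sets of its array. Gene symbols came from the annotation of the platform, with older symbols updated through a RefSeq gene table. Gene levels were computed as the report describes. The sets, the gene lists and the tests were chosen with earlier results of these data known. Named were the 15 called genes at each end (predicted genes by number only), the 4 members of each of 37 lists with the largest absolute difference, genes passing a test, Klk8, and blood cell and sex-linked genes; any other gene is said to be chosen after its values were seen.

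Differences and tests came from limma 3.58.1 in R 4.3.3, with Benjamini-Hochberg adjustment over 16367 genes and two-sided tests. A model with genotype and set on 8 arrays gave the set difference and the genotype test, a second with their interaction gave the interaction, and a model with genotype and number on 10 arrays gave the contrasts of numbers. The labels do not say what a number marks. The deviations of same-numbered arrays from the genotype means correlated at 0.24 to 0.41 for numbers 1, 3, 4 and 5 and at 0.082 for number 2, so within the 8 arrays the numbers were treated as possible pairs and fits with number as a block were made. Pairs of unlike number in the same set correlated at 0.20 to 0.39. The calculations were tested on simulated data. Of 758 listed genes 652 (86.0%) were measured. On every array Xist lay between 3.55 and 4.00 and the Y-linked Eif2s3y between 7.29 and 7.91 without the filter. The small number of arrays limits the precision. Alternatives covered the filter, the summary over probe sets, the scaling, the variance model, the block and each array left out; cyclic loess, leaving out arrays for the contrasts of numbers, and the block in the interaction were added after seeing the data.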

Additional observations from a re-analysis of the deposited data

Results flagged for a closer look

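Among 68 groups of 5 arrays, 2 held an array far from the others, as a test for a single outlying value finds in about 1 of 20 groups by chance. Otx2 stood at 6.53 on knockout array 2, while the other knockout arrays lay between 5.66 and 5.79. The gap between named and unnamed probe sets was 2.12 on knockout array 4, while the other knockout arrays lay between 2.18 and 2.20.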

How the results depend on the processing

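The genes called higher, 141 as reported, numbered 63 without the filter, 53 with the stricter filter, 360 with at least 1 probe set, 77 with arrays centred on their medians, 438 in wild type alone, 249 in knockout alone, 641 at a size of 0.3 and 1 at a size of 1. Those called lower, 72 as reported, numbered 226 with the median of probe sets, 113 with at least 1 probe set, 133 with centred arrays, 727 in wild type alone, 655 at a size of 0.3 and 0 at a size of 1. Leaving out 1 array gave 136 to 211 higher and 57 to 144 lower genes. The correlation of the wild-type and knockout differences was 0.372 without the filter, 0.554 with the stricter filter, 0.408 both with the median of probe sets and with at least 1 probe set, 0.472 with cyclic loess, and 0.430 to 0.517 with 1 array left out. The genotype count of 2 was 0 with at least 1 probe set, with the median and with median polish, 1 with quantile normalization or cyclic loess, and 0 to 2 with 1 array left out. With number as a fixed replicate block it was 0, with a smallest adjusted p of 0.0696 (limma). The interaction count was 0 to 1 with 1 array left out. The count for number 2 was 1 with the stricter filter, with centred arrays and with the trended and robust variance, 2 at an adjusted p of 0.1, and 0 to 4 with 1 array left out. The causes of these changes were not tested, except that the size of a call and the number of genes or arrays act through their own construction. No named gene that was called changed sign. Of all 181 named genes, 20 changed sign in knockout alone, 13 with the median of probe sets and 8 with cyclic loess, and at most 3 under any other single setting.

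With number as a fixed replicate block, added after seeing the data, the interaction count was 0, with a smallest adjusted p of 0.233 (limma). A random replicate block on number gave a correlation of -0.183, left the calls at 141 and 72, and changed the SE of the set difference to a median of 0.891 of its size without the block. With 2 arrays per genotype and set, and low levels for most genes called higher, small differences in low genes have little support here.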

Other observations

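Genes of synapses and channels that belong to no comparison above were described with the same difference, numbers 4 and 5 minus numbers 1 and 3, without a test. Of 34 potassium channel genes 28 were lower, with a median of -0.11 beside -0.06 for all genes, and Kcnd2, a channel of dendrites that carries A-type current, differed by -0.27 (SE 0.07) with no overlap, but by 0.04 with the median of its probe sets. The list median was 0.00 after cyclic loess normalization. Of 11 genes for GABA-A receptor subunits 9 were lower, with a median of -0.19, or -0.09 after cyclic loess normalization, and the subunit genes Gabrq and Gabrg3 differed by -0.34 (SE 0.10) and -0.26 (SE 0.08). The glutamate receptor list had 17 of 22 genes lower and a median of -0.07, and its median was 0.03 after cyclic loess normalization. Presynaptic genes stood at -0.03, with Syt2, the synaptotagmin of fast-spiking neurons, at -0.67 (SE 0.16), and Pvalb, the parvalbumin gene of such neurons, differed by -0.33 (SE 0.09); the sets overlapped for both.

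Of 18 clock genes 14 were lower, with a median of -0.14 that came to -0.01 after cyclic loess normalization. Arntl, the activator at the core of the clock, differed by -0.35 (SE 0.08) with no overlap, by -0.34 in wild type and -0.35 in knockout. The list of genes that respond to glucocorticoids had 10 of 19 lower and a median of -0.02, with the cell cycle inhibitor Cdkn1a at -0.56 (SE 0.14) and the stress gene Ddit4 at 0.40 (SE 0.15), both with overlap. The heat shock and chaperone list stood at -0.23 in wild type and 0.10 in knockout. The immediate early genes went both ways, with 14 of 26 higher and 12 lower. Fos and Junb differed by 0.21 (SE 0.10) and 0.27 (SE 0.12), Homer1 by -0.24 (SE 0.08) and Dusp1 by -0.19 (SE 0.11), all with overlap. Fos lay in the lowest of 10 bands of level, in which 74.6% of all genes were higher. The hour of dissection and the state of the animals are not given in the labels, and their part in these values was not tested.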
